A study of Mus musculus with 6 samples.

Results

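Transcription factors that specify and maintain excitatory neurons of the cerebral cortex were examined in RNA sequencing libraries of mouse brain tissue. The set was chosen by gene name and comprised 9 genes: Tbr1, Fezf2, Bcl11b, Cux1, Cux2, Rorb, Neurod1, Neurod2 and Neurod6. Of these, 8 were among the 13170 genes of the deposited table, and all 8 passed the filter on low values described below. Bcl11b was not analysed here. The study compared adult male C57 mice labelled as having high sexual motivation with mice labelled as low, at 3 libraries a group, and the labels name no other allele or treatment. The tissue is named in several ways in the labels: medial amygdala in the title, the abbreviation PrL in the extraction protocol, and brain as the tissue label. The labels do not say whether each library came from 1 animal or from a pool, so p-values reflect the variation among 6 libraries, part of which may be technical.

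Excitatory neurons of the cortex, the hippocampus and the pallial amygdala arise from the dorsal forebrain, the pallium, whereas most neurons of the striatum and many of the medial amygdala arise from the subpallium or from neighbouring territories. Tbr1, a T-box factor, and Fezf2, a zinc-finger factor, are best known for deep-layer projection neurons, with Tbr1 typical of neurons that project to the thalamus and Fezf2 of those that project to the brainstem and spinal cord. Cux1 and Cux2 are homeobox factors of upper-layer neurons, and Rorb is an orphan nuclear receptor of the layer that receives thalamic input. The basic helix-loop-helix factors Neurod1, Neurod2 and Neurod6 promote and maintain the differentiation of glutamatergic neurons, and Neurod1 is also a factor of dentate granule cells. Several of these genes have other sites of expression, since Cux1 is broadly expressed and Rorb is found in thalamus and in some glia. In bulk samples, fewer cells of a type and less RNA per cell cannot be told apart.

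The 3 Neurod genes encode closely related proteins, and 1 of them carried the largest contrast described below, so the sequence upstream of each is shown for comparison. Each line gives the bases from the upstream end of the RefSeq promoter window (GRCm38.p6), 5′ to 3′ on the minus strand, on which all 3 genes lie. The bases are cut where the first exon of any gene annotated by GENCODE begins. For Neurod1 that is an exon of Cerkl, so its line stops short of Neurod1 itself. Capitals mark CANNTG, the E-box core that basic helix-loop-helix dimers recognise and that reads the same on both strands.
Neurod1, chr2:79456786-79456886: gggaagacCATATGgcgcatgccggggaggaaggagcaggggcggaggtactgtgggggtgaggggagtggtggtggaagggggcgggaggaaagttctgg
Neurod2, chr11:98329649-98329895: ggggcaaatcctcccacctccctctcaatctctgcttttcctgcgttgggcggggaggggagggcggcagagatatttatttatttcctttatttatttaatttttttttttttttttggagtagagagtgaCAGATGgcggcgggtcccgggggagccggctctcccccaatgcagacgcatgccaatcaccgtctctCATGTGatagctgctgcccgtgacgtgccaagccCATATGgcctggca
Neurod6, chr6:55681264-55681513: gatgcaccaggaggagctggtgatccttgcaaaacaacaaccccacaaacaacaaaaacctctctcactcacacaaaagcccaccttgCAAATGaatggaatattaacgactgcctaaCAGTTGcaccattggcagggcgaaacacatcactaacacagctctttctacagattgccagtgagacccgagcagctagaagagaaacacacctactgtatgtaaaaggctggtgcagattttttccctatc
The full window of 250 bases held 1 E-box core for Neurod1, 3 for Neurod2 and 2 for Neurod6. Of 32851 RefSeq promoter windows of that length, 66.2% held at least 1, with a median count of 1. The G and C content of the windows was 67.6% for Neurod1, 52.8% for Neurod2 and 46.0% for Neurod6, where the median over all windows was 52.4%. The stretch ahead of any annotated exon was 101 bases for Neurod1, 247 for Neurod2 and 250 for Neurod6. The window of Neurod1 therefore reaches furthest past an exon start, and the windows are not alike in this respect. The core CATATG stood in the windows of Neurod1 and Neurod2. These matches describe letters and not binding sites.

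Expression is given as FPKM, a count of fragments scaled by transcript length and by the mapped total, so that levels of different genes can be set side by side. Where 3 values of a group are listed, they stand in the order of libraries 1, 2 and 3. The files give no absolute depth, and a relative depth was taken from the most common ratio between libraries over 1428 genes with FPKM under 1.5 in every library: high library 2 and low library 2 stood at 1.39 and 1.31 times low library 1, and the others at 0.969 to 1.04 times. The estimate for high library 3 was the least sharp, with 23 genes in its most common bin against 22 in the next. Pearson correlations of log2 values between libraries ran from 0.979 to 0.992 across genes. The table holds 0 values at 0. Low libraries 1 and 3 stood apart in choroid plexus genes, with Ttr at 1290 and 4016 FPKM against 33.5 to 102.3 in the other 4 libraries, and the fits below were repeated without those libraries. A log2 difference below is the high group minus the low group, with 1 added to each FPKM before taking logs, which shrinks the differences of weakly expressed genes. Standard errors, 95% intervals and Benjamini-Hochberg adjusted p come from limma, fitted to the 12026 genes whose FPKM averaged 1 or more.

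The 8 genes ranged from weakly to well expressed, with 22.6% of listed genes below Neurod1 and 81.6% below Neurod6. Neurod6 had the highest mean over the 6 libraries, 20.0 ± 4.29 FPKM (SD, n = 6). Neurod2 followed at 17.6 ± 4.01, Tbr1 at 12.6 ± 1.93, Fezf2 at 10.04 ± 1.51, Cux2 at 7.15 ± 0.681, Cux1 at 3.56 ± 0.320, Rorb at 2.29 ± 0.387 and Neurod1 at 2.19 ± 0.770. Neighbours in the upper part of that order were not separated by their spread. Neurod6 exceeded Neurod2 in 4 of 6 libraries, and Tbr1 exceeded Fezf2 in 4 of 6. Neurod2 exceeded Tbr1 in 6 of 6, although their ranges over libraries overlapped. Fezf2, Cux2, Cux1 and Rorb followed each other without overlap of their ranges. Rorb and Neurod1, at the bottom, exchanged places, with Rorb higher in 3 of 6 libraries.

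**Figure D1:**
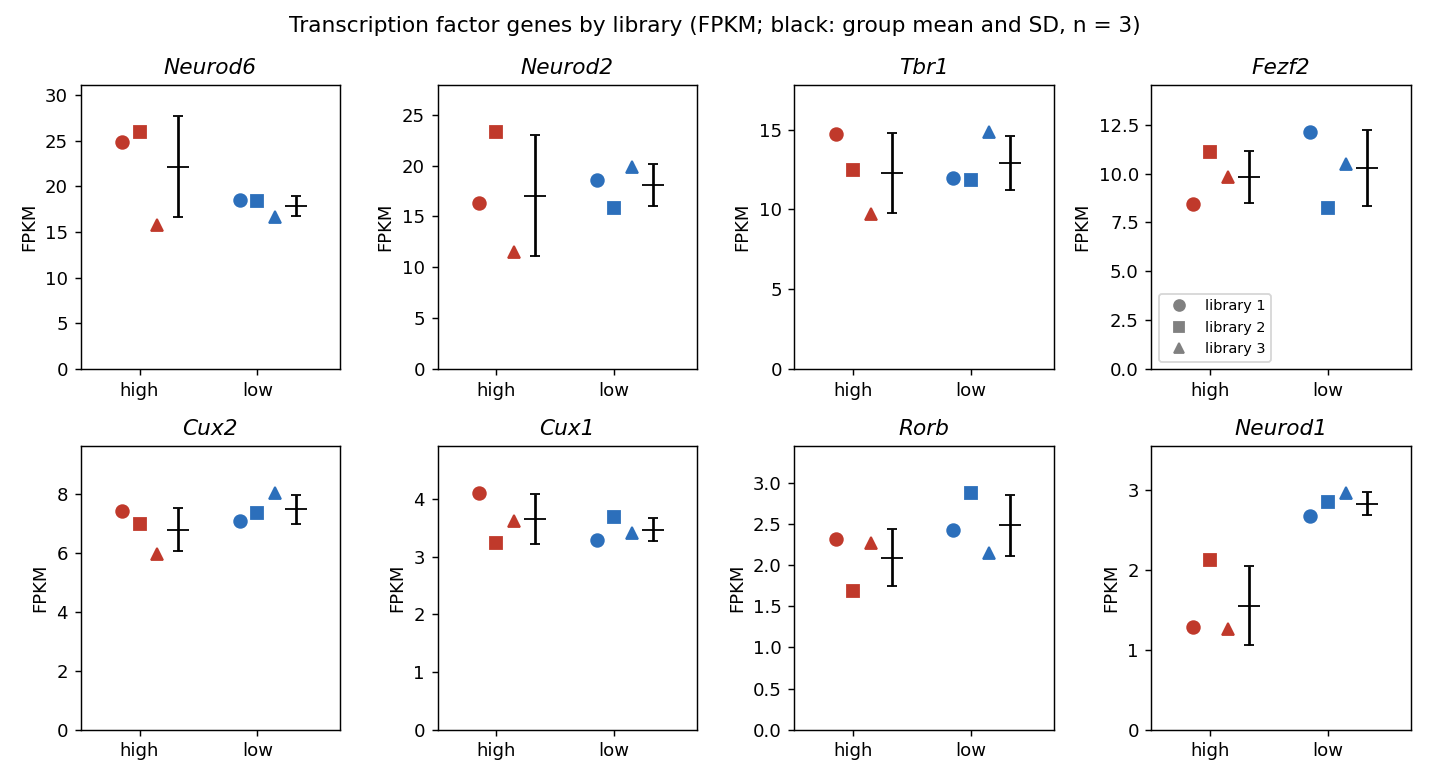
FPKM (vertical axes, from 0) of the 8 genes in the high and low groups, ordered by mean level; symbols mark library 1, 2 and 3, and black marks the group mean and SD (n = 3). Neurod1 was the gene whose groups did not overlap, at 1.26 to 2.12 FPKM in the high group and 2.67 to 2.96 in the low group; high library 3 was the lowest library for 5 of the 8 genes.

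No gene of the set passed the test between the groups. By limma, 0 of 8 had an adjusted p under 0.05, where the background over all tested genes was 0%, and the smallest adjusted p of any tested gene was 0.363. At an unadjusted p under 0.05 there was 1 of 8, Neurod1, beside 1009 of 12026 genes, or 8.39%, and 514 genes, or 4.27%, when counting only those lower in the high group, as Neurod1 was. Of the 8, 2 were higher and 6 were lower in the high group, and the median log2 difference was −0.10, against 0.000181 over all tested genes. Without high library 3 that median was 0.0057, and without low libraries 1 and 3 it was 0.0064, so its sign rested on these libraries.

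Neurod1 showed the largest contrast of the set. It measured 1.28, 2.12 and 1.26 FPKM across the high group, compared with 2.67, 2.85 and 2.96 across the low group. Every high library lay below every low library, and high library 2 was closest to the low group. The means were 1.55 ± 0.491 and 2.83 ± 0.145 (SD, n = 3 each), a ratio of 0.549. The log2 difference was −0.60 (SE 0.135; 95% interval −0.91 to −0.29), with an unadjusted limma p of 0.00216, which ranked 52 among 12026 genes, and an adjusted p of 0.496. Groups that did not overlap with the high group lower were found in 1 of the 8 genes and in 7.61% of all tested genes. The authors' deposited table lists Neurod1 with a log2 ratio of group means of −0.86 and an unadjusted p of 0.0125, at rank 258 of 13170 genes. Of the 8, Neurod1 alone had a p under 0.05 in the authors' deposited table, where 7.4% of all genes did.

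The difference of Neurod1 kept its direction in all 17 alternative fits, from −0.86 with a pseudocount of 0.1 to −0.52 without high library 3. Since its groups did not overlap, leaving libraries out or changing the pseudocount could not have reversed that direction. Its adjusted p ran from 0.0766, without high library 2, to 0.979, without low libraries 1 and 3. Neurod1 lies on chromosome 2 from 79452521 to 79456751 on the minus strand of GRCm38. In the annotation Cerkl overlaps it on the same strand and Gm26755 on the other strand. Neither is used here. The libraries keep strand, but the labels do not say whether fragments were assigned by it, and strand could not set Cerkl apart. Fragments of these transcripts may therefore not be separated from those of Neurod1.

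The groups overlapped for both other Neurod genes. Neurod2 was measured at 16.4, 23.3 and 11.5 FPKM across the high group, compared with 18.6, 15.9 and 19.9 across the low group. The high group held both the highest and the lowest of the 6 values, and the groups overlapped (17.1 ± 5.94 against 18.1 ± 2.03; log2 difference −0.13, SE 0.214, 95% interval −0.62 to 0.36, adjusted p = 0.868). Neurod6 stood at 24.8, 25.9 and 15.8 FPKM across the high group, compared with 18.5, 18.4 and 16.6 across the low group. High libraries 1 and 2 lay above the low group, while high library 3 lay below it (22.2 ± 5.56 against 17.8 ± 1.07; log2 difference 0.27, SE 0.167, 95% interval −0.12 to 0.65, adjusted p = 0.664). The difference of Neurod6 was 0.49 without high library 3 (adjusted p = 0.590), 0.18 without high library 1 (adjusted p = 0.810) and 0.145 without high library 2 (adjusted p = 0.812), and the adjusted p ran from 0.482 to 0.979 over all alternatives.

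Ratios within a library do not depend on how the library was scaled, so the 3 paralogues were also set against each other; these ratios were chosen after the values were seen and were not tested. The ratio of Neurod6 to Neurod1 was 19.3, 12.2 and 12.6 across the high group, compared with 6.93, 6.44 and 5.61 across the low group. Every high library exceeded every low library. The ratio of Neurod2 to Neurod1 was also higher in every high library, at 12.8, 10.98 and 9.13 against 6.94, 5.56 and 6.70. Both ratios have Neurod1 as denominator, whose own groups did not overlap, so they restate its contrast and are not further ones. The ratio of Neurod6 to Neurod2 overlapped between the groups, at 1.51, 1.11 and 1.38 against 0.999, 1.16 and 0.837.

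**Figure D2:**
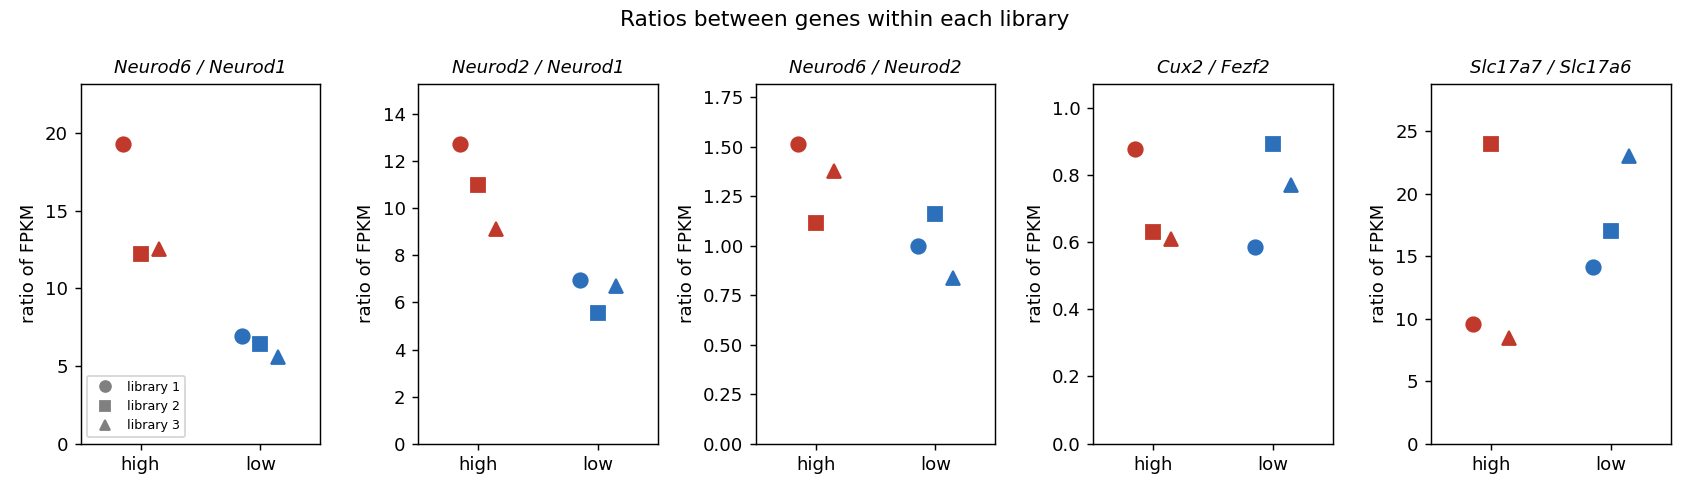
Ratios of FPKM between pairs of genes (vertical axes, from 0) within each high and low library, with symbols for library 1, 2 and 3. Both ratios with Neurod1 as denominator, a gene whose own groups did not overlap, were higher in every high library. Neurod6 / Neurod2, Cux2 / Fezf2 and Slc17a7 / Slc17a6 overlapped between the groups.

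The deep-layer factors did not separate the groups. Tbr1 had 14.7, 12.4 and 9.74 FPKM across the high group, compared with 11.97, 11.9 and 14.8 across the low group. High library 1 and low library 3 were nearly equal at the top, and high library 3 was the lowest (log2 difference −0.07, SE 0.144, 95% interval −0.41 to 0.26, adjusted p = 0.891). Fezf2 had 8.46, 11.1 and 9.84 FPKM across the high group, compared with 12.1, 8.24 and 10.5 across the low group. Both the highest and the lowest value belonged to the low group (log2 difference −0.05, SE 0.140, 95% interval −0.38 to 0.27, adjusted p = 0.923).

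Cux1 and Cux2, the upper-layer homeobox factors, varied least among the 8. Cux1 had 4.10, 3.24 and 3.61 FPKM across the high group, compared with 3.29, 3.69 and 3.41 across the low group, a coefficient of variation of 8.98% over the 6 libraries. Its groups overlapped (log2 difference 0.06, SE 0.0918, 95% interval −0.16 to 0.27, adjusted p = 0.869). Cux2 had 7.42, 7.00 and 5.98 FPKM across the high group, compared with 7.09, 7.36 and 8.05 across the low group, a coefficient of variation of 9.52%. High library 3 was the lowest and low library 3 the highest (log2 difference −0.13, SE 0.0896, 95% interval −0.33 to 0.08, adjusted p = 0.699). Annotated genes overlap both loci, among them A430110C17Rik on the strand of Cux1 and Gm15637 opposite Cux2, and their fragments may not be separated.

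Rorb had 2.32, 1.69 and 2.27 FPKM across the high group, compared with 2.43, 2.88 and 2.15 across the low group. The lowest value was that of high library 2 and the highest that of low library 2, with overlap between the groups (log2 difference −0.17, SE 0.120, 95% interval −0.45 to 0.10, adjusted p = 0.694). After a trend on transcript G and C content and length was removed from each library, the difference of Rorb was −0.08. The ratio of Cux2, an upper-layer factor, to Fezf2, a deep-layer factor, was 0.877, 0.630 and 0.608 across the high group. Across the low group it was 0.585, 0.893 and 0.769, and the groups overlapped. Whether this ratio measures cortical layers in the tissue used was not tested.

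**Figure D3:**
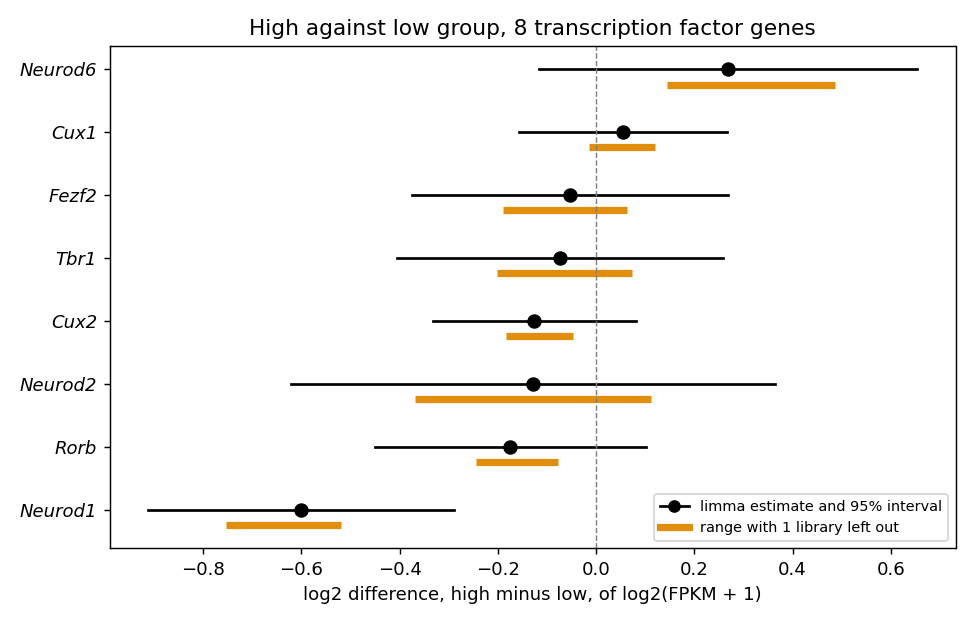
Log2 difference, high minus low, of log2(FPKM + 1) for each of the 8 genes: black points and lines are the limma estimate and its 95% interval, and orange bars are the range of the estimate when 1 library at a time is left out. The interval of Neurod1 (−0.91 to −0.29) lies below 0 before adjustment for the number of genes; the other 7 intervals include 0.

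Across libraries, some pairs of the 8 genes ran in parallel and others in opposite directions. Over the 28 pairs, the Pearson correlation of log2(FPKM + 1) across the 6 libraries was above 0 in 17 and had a median of 0.174. These correlations rest on 6 libraries that share their normalisation and are given as a description. The closest pair was Tbr1 and Cux2, a deep-layer and an upper-layer factor (r = 0.905, Spearman rho 0.771). The most opposed pair was Cux1 and Fezf2 (r = −0.868, rho −0.886). The nearest partner of Neurod1 was Cux2 (r = 0.621), that of Neurod6 was Neurod2 (r = 0.551), that of Fezf2 was Neurod2 (r = 0.460), that of Neurod2 was Cux2 (r = 0.651), and Cux1 and Rorb were nearest to each other (r = 0.466).

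High library 3 was the library in which the set was lowest. It held the lowest value of 5 of the 8 genes, Tbr1, Cux2, Neurod1, Neurod2 and Neurod6, and 1 of the 8 was above its own mean over libraries there. The mean log2(FPKM + 1) over the 8 genes was 2.81 in high library 3 and lay between 3.05 and 3.12 in the other 5 libraries. High library 2 and low library 2 stood at 3.11 and 3.06. In high library 2, where Neurod2 and Neurod6 reached their maxima, both stayed the highest of the 6 libraries after the trend on G and C content and length was removed, at 0.36 and 0.49 above their own means in log2.

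Outside the set, the 5 genes whose levels across the 6 libraries were most like the mean of the 8 were Heatr5b (r = 0.995, rho 0.886), Slc24a4 (r = 0.994, rho 0.943), Zfp382 (r = 0.991, rho 0.771), Chrm1 (r = 0.990, rho 0.943) and Sun1 (r = 0.990, rho 0.829). Chrm1 encodes a muscarinic acetylcholine receptor of forebrain neurons, and Slc24a4 a sodium, potassium and calcium exchanger. Chrm1 had 32.7, 36.5 and 25.8 FPKM across the high group, compared with 34.6, 33.4 and 35.5 across the low group. Each of the 5 was lowest in high library 3, and without that library r over the other 5 libraries ranged from 0.905 to 0.937 for these genes. The genes were chosen for their high r over the same 6 libraries, so these values are not a separate check.

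Other genes of the cortex and the pallium were then set beside the 8, to show what the tissue pieces held. The transporter Slc17a7, which loads glutamate into vesicles in cortex and hippocampus, had 179.6, 256.0 and 138.5 FPKM across the high group, compared with 192.4, 170.5 and 230.2 across the low group. High library 3 was again the lowest, and the groups overlapped (adjusted p = 0.922). Slc17a6, the transporter of thalamus, hypothalamus and medial amygdala, had 18.8, 10.7 and 16.3 against 13.6, 10.02 and 9.99 FPKM. The ratio of Slc17a7 to Slc17a6 was 9.56, 24.0 and 8.49 across the high group, compared with 14.2, 17.0 and 23.1 across the low group, which overlapped (log2 difference −0.50, exact 2-sided permutation p = 0.4, where 0.1 is the smallest that 3 against 3 can give). Camk2a, a kinase abundant in forebrain excitatory neurons, ranged from 435.2 to 598.9 FPKM with overlapping groups.

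Among 26 listed transcription factors of the pallium and of cortical layers, 23 were tested, of which 9 were higher and 14 lower in the high group, with a median log2 difference of −0.06. By limma 0 passed and 3 had an unadjusted p under 0.05, all 3 lower: Mef2c, Bhlhe22 and Emx1. Over all tested genes 8.39% had such a p in limma, and 4.27% had it with the high group lower. Mef2c, a MADS-box factor of excitatory neurons and some interneurons, had 11.4, 12.99 and 10.4 FPKM across the high group, compared with 17.5, 17.7 and 17.1 across the low group (log2 difference −0.56, SE 0.0832, adjusted p = 0.363). Emx1, a homeobox factor of the pallial lineage, had 3.11, 3.49 and 2.40 against 3.64, 3.62 and 4.04 (log2 difference −0.26, SE 0.113, adjusted p = 0.596). Both were lower in every high library, as were 7.61% of all tested genes, and 1 gene of the list was higher in every high library. Bhlhe22, a basic helix-loop-helix factor of the same superfamily as the Neurod genes, had 9.24, 21.3 and 11.7 against 22.2, 21.1 and 26.1, with high libraries 1 and 3 below the others and high library 2 among the low group (log2 difference −0.75, SE 0.251, adjusted p = 0.564).

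Among 28 tested effector genes of cortical and forebrain excitatory neurons, 11 were higher and 17 lower, with a median of −0.14. Here 0 passed, and 7 had an unadjusted p under 0.05, or 7 of 28 beside 8.39% of all tested genes, with 3 higher and 4 lower. The 3 with the smallest p were lower in every high library: Kcnv1, a silent potassium channel subunit (7.21 ± 0.565 against 10.8 ± 1.05 FPKM, adjusted p = 0.363), Calb1, which encodes calbindin (29.2 ± 3.83 against 38.1 ± 1.25, adjusted p = 0.505), and Crym (14.9 ± 5.13 against 23.5 ± 2.51, adjusted p = 0.553). The 3 that were higher, named after their values were seen, were Nxph4 (10.34 ± 4.30 against 4.87 ± 1.35), Fezf1, a paralogue of Fezf2 (2.29 ± 0.540 against 1.33 ± 0.488), and Rspo1 (3.804 ± 0.531 against 2.59 ± 0.994), with adjusted p of 0.553, 0.575 and 0.582; of these, Fezf1 was higher in every high library and the groups of Nxph4 and Rspo1 overlapped. Cdh13, the fourth that was lower, had 10.86 ± 0.730 against 12.84 ± 1.27, with overlap (adjusted p = 0.582). Of the 28 tested genes, 3 were lower and 1 was higher in every high library. Over all tested genes, the groups of 14.9% did not overlap. Since Neurod1 is also a factor of dentate granule cells, hippocampal markers were examined. Of 10 tested, 3 were higher and 7 lower, with a median of −0.07 and 0 passing; 1, the channel gene Trpc6, had an unadjusted p under 0.05. Prox1, the defining factor of dentate granule cells, had 1.13, 1.00 and 1.47 FPKM across the high group, compared with 1.40, 1.38 and 1.28 across the low group, with overlap (adjusted p = 0.798). C1ql2, a secreted protein of mossy fibres, had 0.876, 3.08 and 2.49 against 3.83, 2.72 and 3.56 (adjusted p = 0.605). Hippocampal markers were lowest in high library 1, with a mean log2(FPKM + 1) of 2.58 where the others had 2.76 to 2.93. Their part in the difference of Neurod1 was not tested.

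Factors and markers of other regions were present in every library. The subpallial factor Lhx6 had 7.67, 8.22 and 9.50 FPKM across the high group, compared with 8.64, 8.06 and 9.28 across the low group, and the ratio of Tbr1 to Lhx6 was 1.92, 1.51 and 1.02 against 1.39, 1.47 and 1.60. Lhx6 thus lay below Tbr1 in all 6 libraries. Meis2, of the subpallium, ranged from 6.25 to 14.4 FPKM, with overlapping groups. Esr1, the oestrogen receptor gene typical of the medial amygdala, had 0.446, 0.705 and 0.806 FPKM against 1.09, 0.936 and 1.16, lower in every high library (log2 difference −0.32, SE 0.113, adjusted p = 0.575 in limma without the filter, since its mean lay below 1 FPKM). Of 19 tested amygdalar and subpallial factors 13 were higher and 6 lower (median 0.06), of 18 medial amygdala and hypothalamic markers 14 were higher and 4 lower (median 0.11), and of 14 striatal genes 9 were higher and 5 lower (median 0.06), with 0 passing in each list. At an unadjusted p under 0.05 by limma were 3 of the amygdalar and subpallial factors (2 higher and 1 lower), 4 of the medial amygdala and hypothalamic markers (3 higher and 1 lower) and 0 of the striatal genes. Over all tested genes the share was 8.39%. Otp, a homeobox factor of the hypothalamus and medial amygdala, had 1.90, 2.65 and 3.66 FPKM across the high group, compared with 1.27, 1.69 and 1.25 across the low group, higher in every high library (log2 difference 0.61, SE 0.172, adjusted p = 0.548). Zic2, a zinc-finger factor, had 6.91, 6.05 and 5.69 against 8.69, 7.61 and 7.37, lower in every high library (log2 difference −0.30, SE 0.0909, adjusted p = 0.553). Cyp19a1 and Sim1 were not analysed here.

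The library in which the cortical set was lowest, high library 3, had the highest mean over the list of medial amygdala and hypothalamic markers. Single members of that list did not all follow its mean. Oxt (5.06 FPKM), Otp (3.66) and Nnat (286.3) were highest in high library 3. Slc17a6 was highest in high library 1 (18.8 FPKM), Cartpt in low library 2 (15.85) and Esr1 in low library 3 (1.16). In high library 3 the mean log2(FPKM + 1) was 3.65 for 20 medial amygdala and hypothalamic markers, where the other libraries had 2.91 to 3.26, and 5.55 for 12 astrocyte genes, where the others had 5.17 to 5.42. The 29 excitatory effector genes had their lowest mean there too, 4.23 against 4.39 to 4.47 in the other libraries, as did the 26 pallial factors (2.57 against 2.61 to 2.72). Striatal genes ranged from 2.99 in low library 3 to 4.02 in high library 1, and Ppp1r1b, a signalling protein of striatal projection neurons, reached 50.6 FPKM there against 23.7 to 39.2 elsewhere. Pan-neuronal genes had 6.60 in high library 3, within the range of the other libraries (6.59 to 6.79). The part of these differences in the levels of the 8 factors was not tested.

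**Figure D4:**
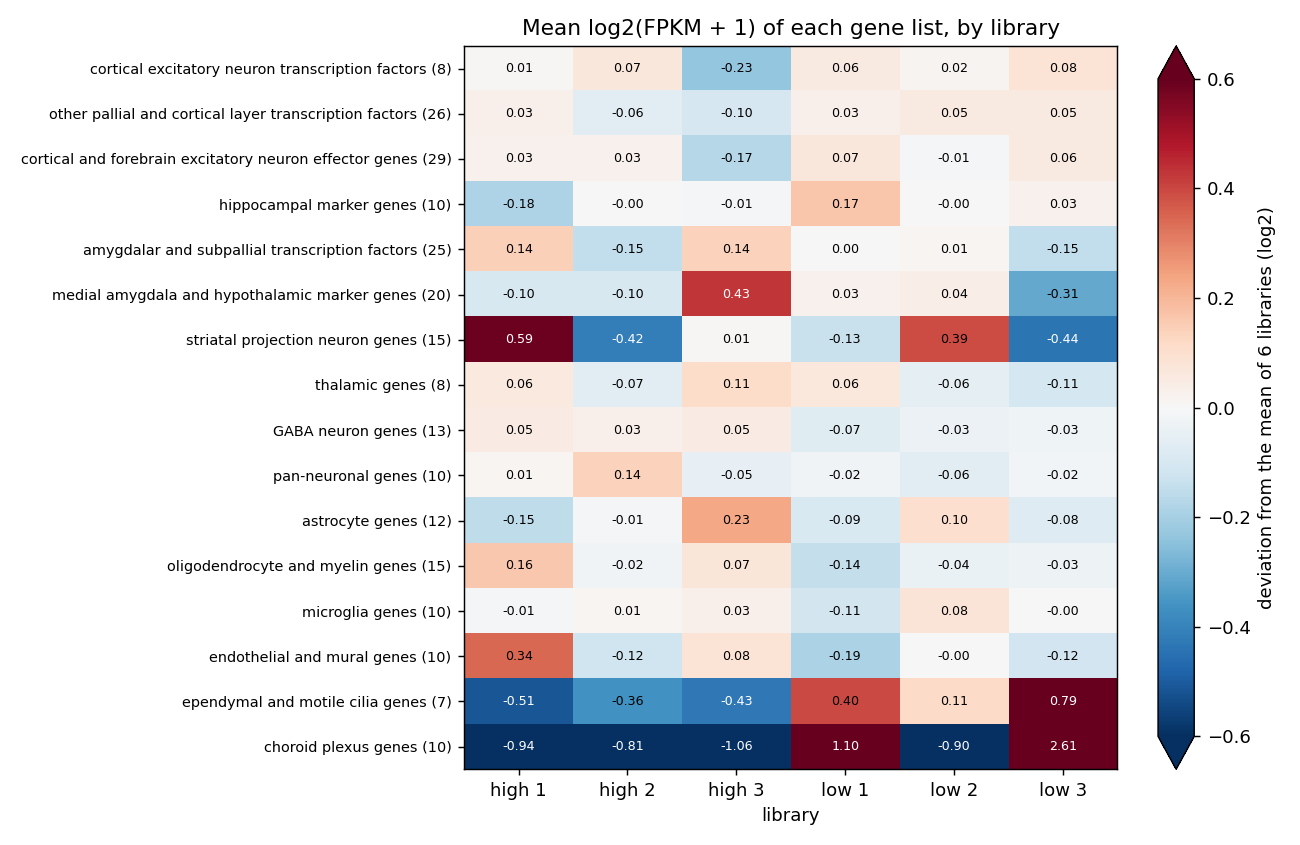
Mean log2(FPKM + 1) of each gene list in each library, shown as the deviation from the mean over the 6 libraries (colour and printed value; the number of genes is in parentheses, and the colour scale is cut at 0.6 on either side). The mean of the 8 cortical factors was lowest in high library 3. The mean of the medial amygdala and hypothalamic markers was highest there, although not every marker was. The choroid plexus genes were high in low libraries 1 and 3.

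Lists of other cell types differed in how their levels lay by group, with no gene past the test. Ependymal and motile cilia genes were lower in 7 of 7 tested members, with group ranges of the mean level that did not overlap (1.28 to 1.43 across the high group, compared with 1.91 to 2.59 in the low libraries), and choroid plexus genes in 10 of 10, although low library 2 (1.34) lay within the range of the high libraries (1.18 to 1.43) and low libraries 1 and 3 stood at 3.34 and 4.85. GABA neuron genes were higher in 10 of 13, beside 6025 of 12026 over all tested genes. Their mean levels did not overlap (4.786 to 4.804 across the high group, compared with 4.68 to 4.73 across the low group). Taken singly, 2 of the 13 were higher in every high library, beside 881 of 12026 over all tested genes. Gad1 (log2 difference −0.025) and Lhx6 (−0.032) were among the 3 lower genes, and their groups overlapped. Oligodendrocyte and myelin genes were higher in 13 of 15. Their mean levels did not overlap either, at 4.212 to 4.39 against 4.09 to 4.20, and 5 of the 15 were higher in every high library. By limma 0 genes of these 4 lists passed, and in that order 7, 7, 2 and 5 had an unadjusted p under 0.05. Over all tested genes 8.39% did. Microglia genes (6 of 10 higher), endothelial and mural genes (8 of 10), astrocyte genes (6 of 12), pan-neuronal genes (7 of 10) and thalamic genes (3 of 5) also had 0 passing, with 3, 2, 2, 1 and 1 at an unadjusted p under 0.05. When low libraries 1 and 3 were dropped, so that the spread came from the high group alone and low library 2 had to share it, the log2 difference of Neurod1 was −0.61, with an adjusted limma p of 0.979.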

How the data were processed

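Poly(A) RNA libraries of 6 samples were compared, 3 per group. The authors deposited FPKM in a single table. Per the submitters' processing notes, the tools were fastp, HISAT2 and StringTie, on GRCm38, with no versions. The deposited log2 fold change equals log2 of the ratio of group means in all 13170 genes (tolerance 1e-06), and the deposited p-value is unadjusted. The libraries keep strand, per the labels' protocols.

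FPKM do not allow a count model. Values were taken as log2(FPKM + 1), genes with a mean below 1 were left out, and limma 3.58.1 in R 4.3.3 compared the groups (variance trend, 2-sided, Benjamini-Hochberg at 0.05). The fit was tested on simulated data. Alternatives were other pseudocounts, filters and scalings, removal of a GC and length trend (splines with 5 degrees of freedom, 11924 genes), a replicate block, array weights, a constant variance prior, and libraries left out. Transcript properties and positions are from GENCODE (GRCm38; 13055 symbols matched). Other steps used Python 3.11.15 with numpy 2.4.6, scipy 1.17.1, pandas 2.3.3 and matplotlib 3.10.9. The members and lists were chosen with earlier results of these data known. Named genes are the members, up to 3 genes per list by smallest p, canonical markers, and the 5 genes most like the mean of the members; some are not reported here.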

Additional observations from a re-analysis of the deposited data

How the results depend on the processing

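Over all alternatives, limma called 0 of the 8 factors, 0 genes of the other lists and 0 genes in all. The count at an unadjusted p under 0.05 was 1009 over all genes and became 1567 with array weights, 633 of 7462 at a mean FPKM of at least 5, and 361 without low libraries 1 and 3; with 1 library left out it ran from 595, without low library 1, to 1324, without high library 2. Among the 8 factors it was 1, and 2 without high library 2 (with Neurod2) or high library 3 (with Neurod6); Neurod1 is not tested at a mean FPKM of at least 5. Neurod1, Neurod6, Cux2 and Rorb kept their direction in every alternative they were tested in, with sizes that moved: with 1 library left out, the difference ran from −0.75 to −0.52 for Neurod1, 0.145 to 0.49 for Neurod6, −0.18 to −0.048 for Cux2 and −0.25 to −0.078 for Rorb (−0.33 without low libraries 1 and 3). For Neurod1, whose groups did not overlap, leaving libraries out could not have reversed the direction. With 1 library left out, the difference ran from −0.20 to 0.072 for Tbr1 and −0.014 to 0.12 for Cux1. It ran from −0.19 to 0.063 for Fezf2 and −0.37 to 0.11 for Neurod2. Without low libraries 1 and 3 these were 0.030, −0.017, 0.22 and 0.044, and with array weights Tbr1 had 0.022; the cause was not tested. The ratio of Slc17a7 to Slc17a6 stayed lower in the high group with each library left out (−0.97 to −0.23 in log2), and median-ratio scaling shifted the libraries by at most 0.0083, while quantile normalisation moved Cux1 from 0.055 to 0.080.

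Samples were not treated as pairs by replicate number in the main fit. Deviations from the group means correlated at −0.0939, −0.206 and −0.156 between libraries of the same number. Deviations within a group sum to 0, which ties such correlations together, so they cannot show whether samples were handled in pairs. With the replicate block, 743 genes had an unadjusted p under 0.05 and the adjusted p of Neurod1 was 0.757. Depth behind each FPKM is unknown.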
